A study of Mus musculus with 16 samples.

Results

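The chemokines and chemokine receptors of the mouse made up 59 of the 21965 genes counted in the terminal ileum. They were taken from the count table by symbol (Ccl, Cxcl and Xcl chemokines and Cx3cl1, the Ccr, Cxcr, Cx3cr1 and Xcr1 receptors and the atypical Ackr receptors), without use of any measured value, and comprised 37 chemokines, 18 signalling receptors and 4 atypical receptors. RNA came from 16 male C57BL/6 mice that entered the study at 8 to 10 weeks of age, with 1 library per mouse. WT PF mice (n = 4) and WT EtOH mice (n = 3) were wild-type. Their fat-1 PF (n = 4) and fat-1 EtOH (n = 5) littermates, labelled Fat1+/-, were heterozygous for fat-1, a worm n3 fatty acid desaturase transgene that is active in all tissues and is unrelated to the mouse gene Fat1. EtOH mice drank a Lieber-DeCarli liquid diet whose EtOH content was raised in steps to 6% (v/v) and held there for 3 weeks, and PF mice were pair-fed the same diet with maltose dextrin in place of EtOH. The transgene is not in the mouse count table, so the genotype labels could not be checked from these counts. The tissue was a whole segment, in which fewer cells of a type and less RNA per cell cannot be told apart.

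Chemokines are small secreted proteins that guide leukocytes along gradients by binding G protein-coupled receptors on their surface. In the small intestine, epithelial cells release chemokines such as Ccl25, Ccl28, Ccl20 and Cx3cl1 that draw lymphocytes and myeloid cells to the mucosa, while stromal cells of lymphoid follicles use Cxcl13, Cxcl12, Ccl19 and Ccl21 to sort B and T cells. Atypical receptors bind chemokines without signalling through G proteins and remove them from the tissue.

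All 59 genes were placed on the GRCm38 genome with GENCODE M21, and most of the chemokines lay in clusters of neighbours. On chromosome 11, 6 genes for monocyte and eosinophil attractants (Ccl2, Ccl7, Ccl11, Ccl12, Ccl8 and Ccl1) lay at chr11:82035571-82305690, and a further 5 (Ccl5, Ccl9, Ccl6, Ccl3 and Ccl4) at chr11:83525778-83664683. The neutrophil attractants Cxcl5, Cxcl3, Cxcl15, Cxcl1 and Cxcl2 lay at chr5:90759360-90905938. Of the 59 genes, 39 passed the filter on low counts and were tested, namely 22 chemokines, 13 signalling receptors and all 4 atypical receptors. Ccl21a, Ccl21b, Ccl26, Ccl27b, Cxcl17 and Cxcl3 had no read in any library, and Ccl1, Cxcl15 and Cxcr1 had at most 3 reads in each. Near-identical copies limit some of these values: 100% of the 75-base stretches of the Ccl21b transcript, 98% of Ccl27b, 61.3% of Ccl21a, 45.3% of Ccl19 and 33.3% of Ccl27a also occur in another gene, so the counts of these genes are uncertain. Smaller shares were found for Ccr9 (19.3%), Ackr1 (16.9%), Cxcl16 (15.4%) and Ackr4 (6.3%), whose transcripts share sequence with a neighbouring gene.

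The 250 bases before the start site are shown for 4 chemokines whose levels are described below: Ccl20 and Ccl25, made by the epithelium, the monocyte attractant Ccl8 and the stromal chemokine Cxcl12. RefSeq entries matched 45 of the 59 genes, with 52 start sites in all, and are written 5′ to 3′ on the plus strand of GRCm38.p6. Capitals mark matches on either strand to the letters searched, an NF-kB-type motif (GGG and CC with any 5 bases between them) and a CDX-type motif (TTTATG).
Ccl20, chr1:83116516-83116765: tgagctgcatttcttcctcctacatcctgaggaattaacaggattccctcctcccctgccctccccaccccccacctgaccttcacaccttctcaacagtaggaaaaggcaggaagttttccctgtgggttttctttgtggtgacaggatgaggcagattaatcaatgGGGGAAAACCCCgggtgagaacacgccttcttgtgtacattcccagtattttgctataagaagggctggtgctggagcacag
Ccl25, first start site, chr8:4324960-4325209: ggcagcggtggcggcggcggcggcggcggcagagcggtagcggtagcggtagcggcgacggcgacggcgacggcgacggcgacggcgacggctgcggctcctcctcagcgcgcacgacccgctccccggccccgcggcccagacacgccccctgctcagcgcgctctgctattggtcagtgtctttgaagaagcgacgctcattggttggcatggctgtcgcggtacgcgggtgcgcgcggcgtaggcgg
Ccl25, second start site, chr8:4349338-4349587: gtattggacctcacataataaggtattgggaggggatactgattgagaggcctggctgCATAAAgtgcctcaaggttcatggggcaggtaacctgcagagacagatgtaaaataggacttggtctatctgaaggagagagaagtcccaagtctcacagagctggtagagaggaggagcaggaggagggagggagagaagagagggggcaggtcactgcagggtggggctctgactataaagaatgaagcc
Ccl8, chr11:82114935-82115184: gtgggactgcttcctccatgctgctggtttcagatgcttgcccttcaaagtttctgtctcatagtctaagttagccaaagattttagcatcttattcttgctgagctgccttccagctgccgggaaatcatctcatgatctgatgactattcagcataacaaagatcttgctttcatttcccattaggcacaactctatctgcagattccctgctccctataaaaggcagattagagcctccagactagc
Cxcl12, chr6:117168285-117168534: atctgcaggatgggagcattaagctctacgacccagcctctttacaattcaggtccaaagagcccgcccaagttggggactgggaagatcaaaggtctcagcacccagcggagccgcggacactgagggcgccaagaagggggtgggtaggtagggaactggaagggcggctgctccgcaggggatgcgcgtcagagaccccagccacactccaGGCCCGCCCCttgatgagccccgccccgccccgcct
The capitals in Ccl20 are 1 stretch, 82 bases before the start site, that holds 4 overlapping matches to the NF-kB-type letters on the 2 strands. The Cxcl12 stretch holds 1 match, 36 bases before the start site, and the second Ccl25 start site has TTTATG on the minus strand 192 bases before it, while the first Ccl25 stretch and the Ccl8 stretch hold neither. The NF-kB-type letters were found in 45.8% of all 32851 promoters of this length and in 51.9% of those of the chemokines and receptors, and TTTATG in 10.8% and 17.3%. An ISRE-type motif (GAAA, any 2 bases and GAAA, in 2.98% of all promoters), a STAT-type motif (TTC, any 3 bases and GAA, 7.02%) and a GATA-type motif (AGATAA, 9.99%) were also searched on both strands, and each of these matches is a description of letters only.

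Between 8422645 and 11438539 reads per library were counted. A level is given as CPM, the count relative to the library total after TMM scaling (trimmed mean of M-values), where 3 reads correspond to 0.246 to 0.421 CPM. The 5 ileum markers (Slc10a2, Fabp6 and others) summed to between 3533 and 10110 CPM in 14 libraries but to 647 and 1255 CPM in fat-1 EtOH 3 and 4. In these same 2 libraries, 8 large intestine markers (Car1, Aqp8 and others) summed to 13140 and 14210 CPM, against 5561 CPM in WT EtOH 2 and 186 to 895 CPM in the other 13, and Hoxd12 and Hoxd13 were at 0 in every library outside the fat-1 EtOH group. The 8 proximal small intestine markers separated the diets, with sums of 2359 to 17100 CPM in 6 PF libraries, 59230 and 61070 CPM in fat-1 PF 2 and 4, and 140 to 760 CPM (highest 759.8) in the 8 EtOH libraries. All 8 were DEGs, lower in fat-1 EtOH than in fat-1 PF mice (median log2 fold change -6.21), and 2 of them were DEGs in WT mice (median -3.66). This difference accompanies each comparison of EtOH with PF mice below, and its part in them was not tested. The 10 B cell follicle markers summed to 689.5 CPM in fat-1 EtOH 5, against 2.5 to 137 CPM elsewhere. Libraries 1 to 8 were the PF mice and libraries 9 to 16 the EtOH mice, so that library order and diet cannot be told apart.

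Per kilobase of exon, Ccl6 was the most abundant chemokine of the ileum, and the receptors were present at far lower levels. The length was that of all annotated exons together, 7445 bases for Ccl25 and 1795 for Ccl6, and the order of these genes depends on it. In CPM, Ccl25 was above Ccl6 in WT PF (524.6 against 275.5), fat-1 PF (677.9 against 202.9) and WT EtOH mice (375.1 against 229.7). It was below Ccl6 in fat-1 EtOH mice (240.5 against 277.3 CPM). Ccl6, a myeloid cell attractant, had a mean of 137 RPKM over the 4 groups, ahead of Ccl25 (61.1 RPKM), which recruits Ccr9+ lymphocytes to the small intestine, and the membrane-bound chemokine Cx3cl1 (32.8 RPKM). Ccl5, a product of intraepithelial lymphocytes (25.4 RPKM), Cxcl16, the ligand of Cxcr6 (18.8 RPKM), and Cxcl14, an epithelial chemokine (8.53 RPKM), followed. Among receptors, Cxcr4, the receptor of Cxcl12, had the highest mean level (3.87 RPKM), followed by Ccr1 (2.33 RPKM), which binds Ccl6 and Ccl9, Ccr7 (2.14 RPKM), which guides cells to lymph nodes, Cxcr6 (1.93 RPKM), Ackr3 (1.88 RPKM), which removes Cxcl12, and the B cell follicle receptor Cxcr5 (1.43 RPKM). In WT PF mice, Ccl6 (153.5 RPKM ± 7.8, SD, n = 4) and Ccl25 (70.5 ± 8.34) were separated by more than their SDs, as were Ccl25 and Cx3cl1 (37.2 ± 4.18). Neighbouring receptors were not. Cxcr4 (3.7 RPKM ± 1.8) and Ccr1 (2.47 ± 0.6) overlapped in WT PF mice, and the means of Ccr7 and Cxcr5 over the groups rest largely on fat-1 EtOH 5, where they reached 25.95 and 9.68 RPKM.

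**Figure D1:**
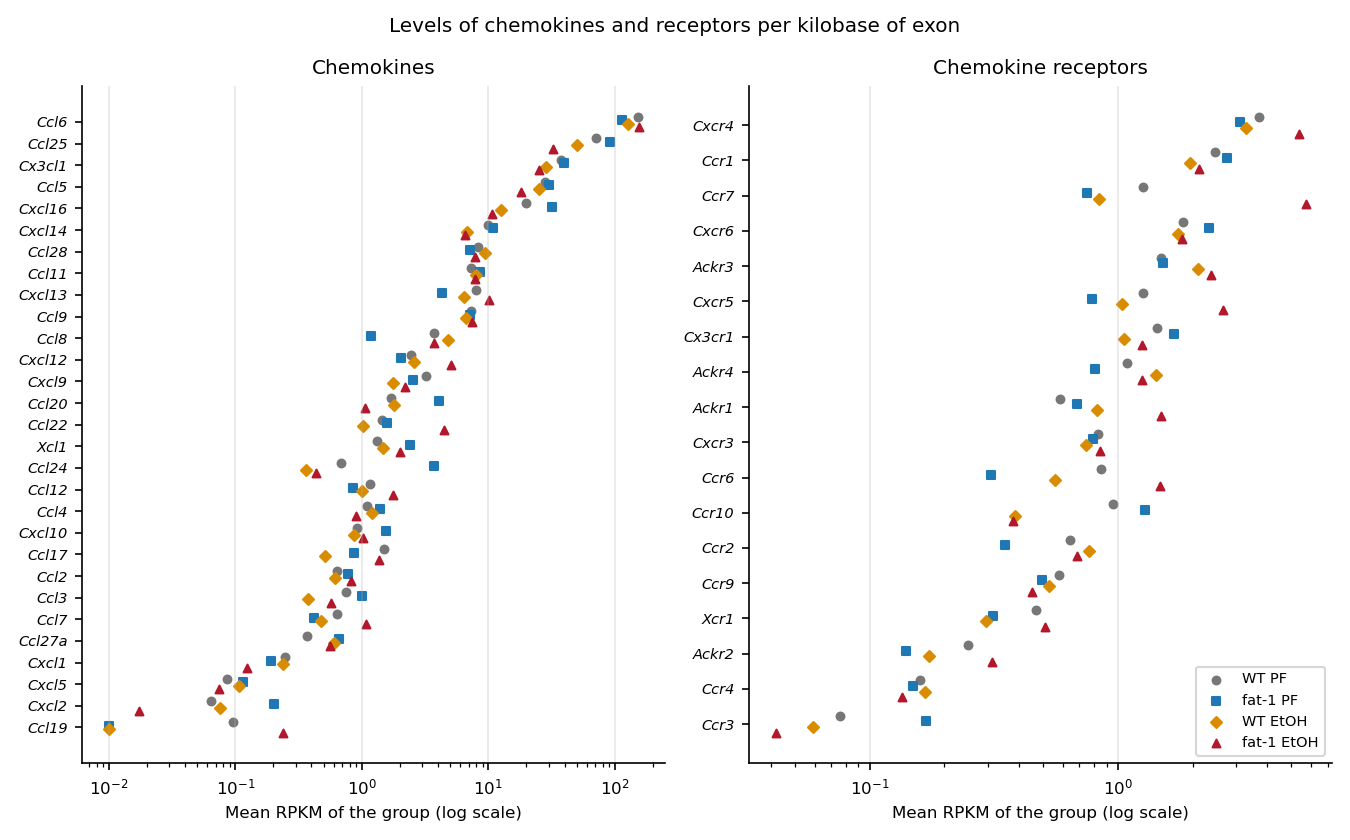
Mean RPKM of each group (log axis) for the chemokines and receptors with a mean over 0.05 RPKM; each symbol is 1 group of mice, and a group mean of 0 (Ccl19 in fat-1 PF and WT EtOH mice) is drawn at 0.01. Ccl6 lies highest with a mean of 137 RPKM over the groups, and the highest receptor, Cxcr4, has 3.87 RPKM.

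In mice fed EtOH on the fat-1 background, 9 of the 39 tested genes were DEGs (adjusted p of 0.05 or less in the quasi-likelihood test of edgeR, adjusted by Benjamini-Hochberg over 13811 genes). The chemokines Cx3cl1, Cxcl16, Cxcl14, Ccl20 and Ccl24 and the receptor Ccr10 fell, and Cxcl12, Ccl8 and the atypical receptor Ackr4 rose. These 9 are 23.1% of the members tested, against 37.4% of all genes tested in the comparison of fat-1 EtOH with fat-1 PF mice, 18.7% of all genes being higher and 18.8% lower. The median log2 fold change was 0.11 over the members and 0.05 over all genes. In WT mice, none of the 39 was a DEG in the comparison of WT EtOH with WT PF, where 11 genes (0.0796% of all tested, 0.00724% higher and 0.0724% lower) passed and 2 members, Cx3cl1 and Ccr10, had an unadjusted p under 0.05, as had 14.1% of all genes. That test used a spread shared with the fat-1 mice. A fit of the WT groups alone called 1103 genes (8.3% of those tested), Cxcl14 and Ccl25 among them. The test of the difference between the responses of the genotypes, the interaction of genotype and diet, called 0 members in edgeR (0% of all genes), with an unadjusted p under 0.05 for 2 members against 8.26% of all genes, so a response confined to fat-1 mice was not shown.

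By role, 5 of the 11 tested genes of mucosal homing and epithelium fell in fat-1 EtOH mice and none rose (median log2 fold change -0.65), where 18.8% of all genes fell and 18.7% rose. Without fat-1 EtOH 3 and 4, 5 fell and 1 rose (median -0.43), where 2183 of 13608 genes fell. Without fat-1 EtOH 3, 4 and 5, 2 fell and none rose (median -0.35), where 1426 of 13711 genes fell. The 6 epithelium markers summed to 7413, 7393 and 9523 CPM in fat-1 EtOH 3, 4 and 5 and to 11870 to 15440 CPM in the other 13 libraries, 2 of them (Vil1 and Krt20) fell in the same comparison, and their part in the result was not tested. Of 7 tested genes that organise lymphoid tissue, 2 rose and none fell (median 1.24), but the median was 0.41 without fat-1 EtOH 5. Of 16 inflammatory CC and XC genes, 1 rose and 1 fell (median 0.08), a smaller share in each direction than among all genes in this fit. Without fat-1 EtOH 3 and 4, 4 of 15 rose and 1 fell, where 2004 of 13608 genes rose and 2183 fell. None of the 3 tested interferon-induced genes and neither of the remaining atypical receptors, Ackr1 and Ackr2, was called in the main edgeR fit. There Ackr1 had a log2 fold change of 1.12 (adjusted p = 0.0517). DESeq2 called it higher (1.13, adjusted p = 0.047), as did upper-quartile scaling and some fits without 1 mouse. The calls depended on which fat-1 EtOH libraries were included. Without fat-1 EtOH 3 and 4, which carried the large intestine markers, 16 members were called (10 higher, 6 lower, with 30.8% of all genes called), and without fat-1 EtOH 3, 4 and 5 only Ccl24, Ccr10, Ccl25 and Ackr4 were called (17.9% of all genes), with 2 mice left in that group. Without fat-1 PF 4, Ccl20, Cxcl16 and Cxcl14 were no longer called. Upper-quartile scaling shifted the median of all genes to 0.2 and turned 2578 higher and 2592 lower calls into 3906 and 1753, and under it 6 members were higher and 5 lower.

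**Figure D2:**
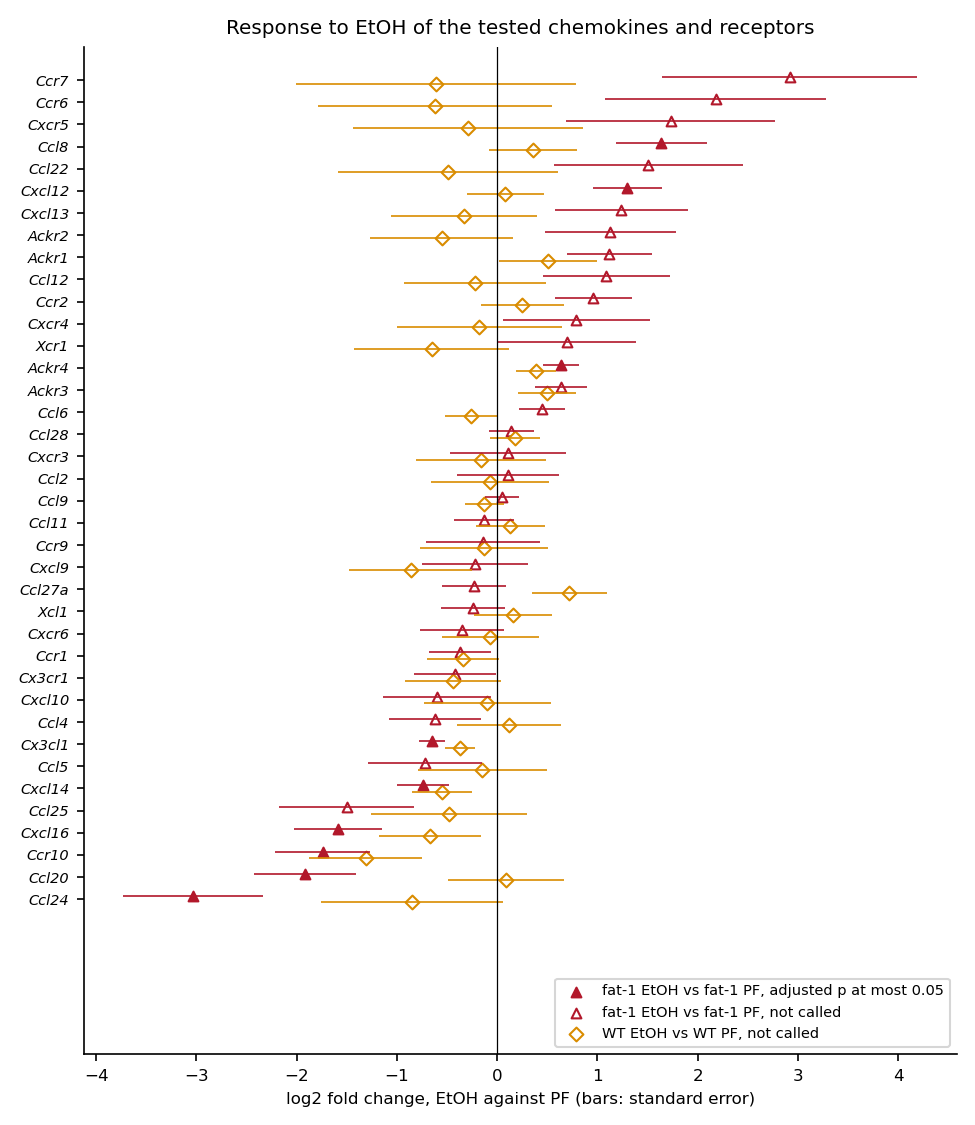
Log2 fold change of EtOH against PF mice with its standard error for 38 of the 39 tested genes, in fat-1 mice (triangles) and in WT mice (diamonds); filled symbols are DEGs. The 9 filled symbols are all in fat-1 mice, from -3.03 for Ccl24 to 1.64 for Ccl8, and the widest error bars belong to Ccr7, Ccr6 and Cxcr5.

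Cx3cl1, also called fractalkine, is an epithelial and endothelial chemokine that engages Cx3cr1 on intestinal macrophages. It was lower in EtOH mice of the fat-1 genotype without overlap. Cx3cl1 had 143, 147.5, 173 and 160.5 CPM in fat-1 PF mice and 109.6, 107, 92.8, 92.2 and 94.7 CPM in fat-1 EtOH mice. In WT PF mice it had 168, 149.6, 134 and 133 CPM, and in WT EtOH mice 99.7, 146.5 and 93.5 CPM, WT EtOH 2 lying among the PF mice. The log2 fold change was -0.65 (SE 0.127, edgeR adjusted p = 0.0017) in fat-1 mice and -0.37 (SE 0.146, adjusted p = 0.287) in WT mice. The fat-1 difference stayed below 0 under every alternative, from -0.68 to -0.49, and passed the threshold in all but the fit without fat-1 EtOH 3, 4 and 5 (adjusted p = 0.0601). Its receptor Cx3cr1 had means of 7.57 CPM in fat-1 PF and 5.64 CPM in fat-1 EtOH mice (log2 fold change -0.42, SE 0.414, adjusted p = 0.435). Of 5 blood endothelium markers, Plvap fell in fat-1 EtOH mice and none rose (median log2 fold change -0.27). The part of these and of the epithelium markers in the Cx3cl1 difference was not tested.

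Cxcl16, a transmembrane chemokine and scavenger receptor that attracts Cxcr6+ T cells, fell in fat-1 EtOH mice. Its levels were 56.4, 97, 71.3 and 162 CPM in fat-1 PF mice and 44.85, 50, 12.7, 9.72 and 43.7 CPM in fat-1 EtOH mice. Every fat-1 EtOH mouse was below every fat-1 PF mouse, with the 2 lowest values in the libraries that carried the large intestine markers. WT PF mice had 80.4, 58.4, 57.8 and 45 CPM and WT EtOH mice 41.9, 30.9 and 40.7 CPM, again without overlap. The log2 fold change was -1.59 (SE 0.439, edgeR adjusted p = 0.0124) in fat-1 mice and -0.67 (SE 0.507, adjusted p = 0.567) in WT mice. Without fat-1 EtOH 3, 4 and 5 it was -0.98 in fat-1 mice (adjusted p = 0.0781), and without fat-1 PF 4 it was -1.21 (adjusted p = 0.0553). Cxcl16 was also not called with only the groups compared (-1.56, adjusted p = 0.0606), and passed the threshold in the other 24 of 27 alternatives. Cxcr6 itself had means of 4.49 and 3.51 CPM in fat-1 PF and fat-1 EtOH mice (log2 fold change -0.35, adjusted p = 0.527).

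Cxcl14, an epithelial chemokine, showed a smaller difference. Fat-1 PF mice had 12.1, 26.95, 17.5 and 23.2 CPM and fat-1 EtOH mice 16.3, 15.9, 9.92, 6.33 and 11.1 CPM, with fat-1 PF 1 inside the EtOH range. WT PF mice (15.9 to 20.5 CPM) and WT EtOH mice (10.4 to 13.7 CPM) did not overlap. The log2 fold change was -0.74 (SE 0.258, edgeR adjusted p = 0.0359) in fat-1 mice and -0.55 (SE 0.298, adjusted p = 0.412) in WT mice. Without fat-1 EtOH 3 and 4 the fat-1 value was -0.43 (adjusted p = 0.162), and over the 27 alternatives it passed the threshold in 14.

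Ccl20, the ligand of Ccr6 made by the epithelium over lymphoid follicles, was lower in fat-1 EtOH than in fat-1 PF mice, and 1 PF mouse carried much of the difference. Ccl20 had 1.48, 3.93, 3.83 and 13.9 CPM in fat-1 PF mice and 1.805, 1.7, 1.48, 0.892 and 1.71 CPM in fat-1 EtOH mice. The value of fat-1 PF 4 was 3.53 times that of the next library, and fat-1 PF 1 lay within the EtOH range. WT PF mice (1.67 to 3.43 CPM) and WT EtOH mice (1.52 to 3.87 CPM) overlapped. The log2 fold change was -1.92 (SE 0.508, edgeR adjusted p = 0.00942) in fat-1 mice, -0.99 (adjusted p = 0.0738) without fat-1 PF 4, and 0.09 (SE 0.58, adjusted p = 0.959) in WT mice. Ccl20 passed the threshold in 23 of 27 alternatives, the other losses being limma voom (-1.56, adjusted p = 0.0761), the fit without fat-1 EtOH 3, 4 and 5 (-1.67, adjusted p = 0.133) and that without the 3 libraries high in large intestine markers (-1.69, adjusted p = 0.0599). Its receptor Ccr6, found on B cells and Th17 cells, was not called (log2 fold change 2.18, SE 1.1, adjusted p = 0.131), with 12.6 CPM in fat-1 EtOH 5 and at most 3 CPM (2.999) in every other library. For Ccr6 the value was 0.61 (adjusted p = 0.614) without fat-1 EtOH 5, and 2.88 (adjusted p = 0.0269) without fat-1 EtOH 3 and 4.

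Ccr10 marks IgA plasma cells that home to epithelium making Ccl28. It was at a low level and fell in fat-1 EtOH mice. Ccr10 had 2.33, 1.825, 1.78 and 2.95 CPM in fat-1 PF mice and 0.38, 1.11, 0.574, 0.0892 and 1.11 CPM in fat-1 EtOH mice, the lowest value being a single read. The groups did not overlap. The difference on the log2 scale was -1.74 (SE 0.472, edgeR adjusted p = 0.0107) in fat-1 mice and -1.31 (SE 0.563, adjusted p = 0.316) in WT mice, whose levels were 0.889 to 2.38 CPM under PF and 0.504 to 0.945 CPM under EtOH. In fat-1 mice the difference passed the threshold in all 26 alternatives in which the gene was tested. The 6 plasma cell markers gave sums of 1021 to 1821 CPM in the PF mice and of 593 to 998 CPM in the EtOH mice of this genotype, and 2 of them (Xbp1 and Jchain) fell and 1 (Sdc1) rose, and their part in the Ccr10 difference was not tested. Its ligand Ccl28 had means of 34.6 and 38.3 CPM in these groups (log2 fold change 0.14, adjusted p = 0.63), and the other ligand Ccl27a 1.56 and 1.33 CPM (log2 fold change -0.23, adjusted p = 0.594).

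**Figure D3:**
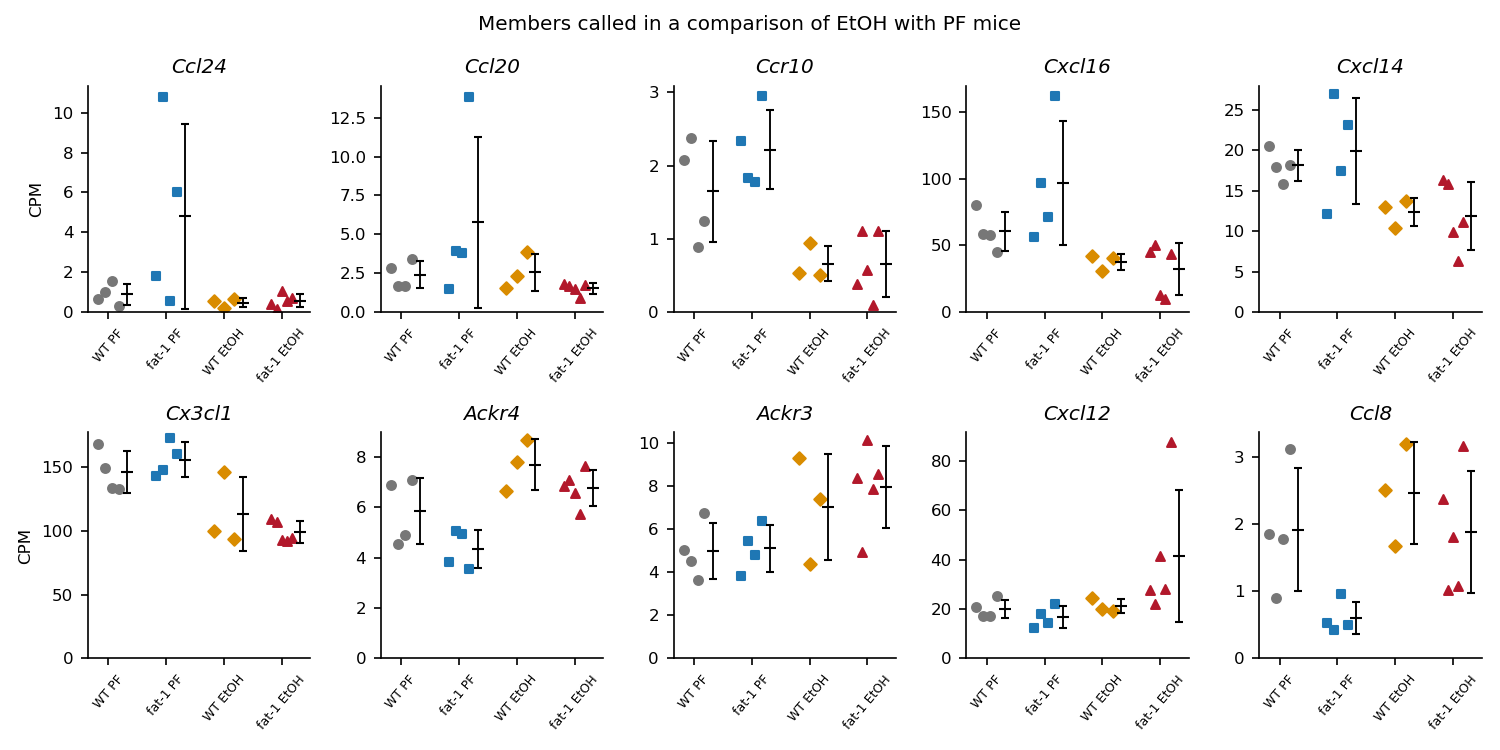
CPM of each mouse (symbols) with the group mean and SD (bars) for the 10 genes that were DEGs in a comparison of EtOH with PF mice. Cx3cl1, Cxcl16, Ccr10, Ackr4 and Ccl8 separate fat-1 EtOH from fat-1 PF mice without overlap, while Ccl24 and Ccl20 have fat-1 PF mice at 10.8 and 13.9 CPM far above the rest.

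Ccl25, the small intestinal chemokine that recruits Ccr9+ T cells and plasma cells, separated EtOH from PF mice in both genotypes but was not called in either. Ccl25 had 548, 765, 696 and 703 CPM in fat-1 PF mice and 392, 440.1, 17.4, 26.9 and 326 CPM in fat-1 EtOH mice. The levels in WT PF mice were 567.7, 537, 559.9 and 433.5 CPM and those in WT EtOH mice 379, 354 and 392 CPM. Every EtOH mouse was therefore below every PF mouse of its genotype, and fat-1 EtOH 3 and 4, with 212 and 302 reads, stood far below all others. The fitted log2 fold change was -1.50 (SE 0.675, edgeR adjusted p = 0.0943) in fat-1 mice and -0.48 (SE 0.775, adjusted p = 0.817) in WT mice. Without fat-1 EtOH 3 and 4 the fat-1 value was -0.78 (adjusted p = 0.00207). A fit of the WT groups alone called Ccl25 in WT mice as well. Its receptor Ccr9 was also lowest in fat-1 EtOH 3 and 4 (0.984 and 0.625 CPM) and lay between 4 and 11.1 CPM (lowest 3.997) in every other library, with a log2 fold change of -0.14 in fat-1 mice (adjusted p = 0.861). The levels of large intestine markers in these libraries are given above, and their part in the Ccl25 and Ccr9 values was not tested.

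**Figure D4:**
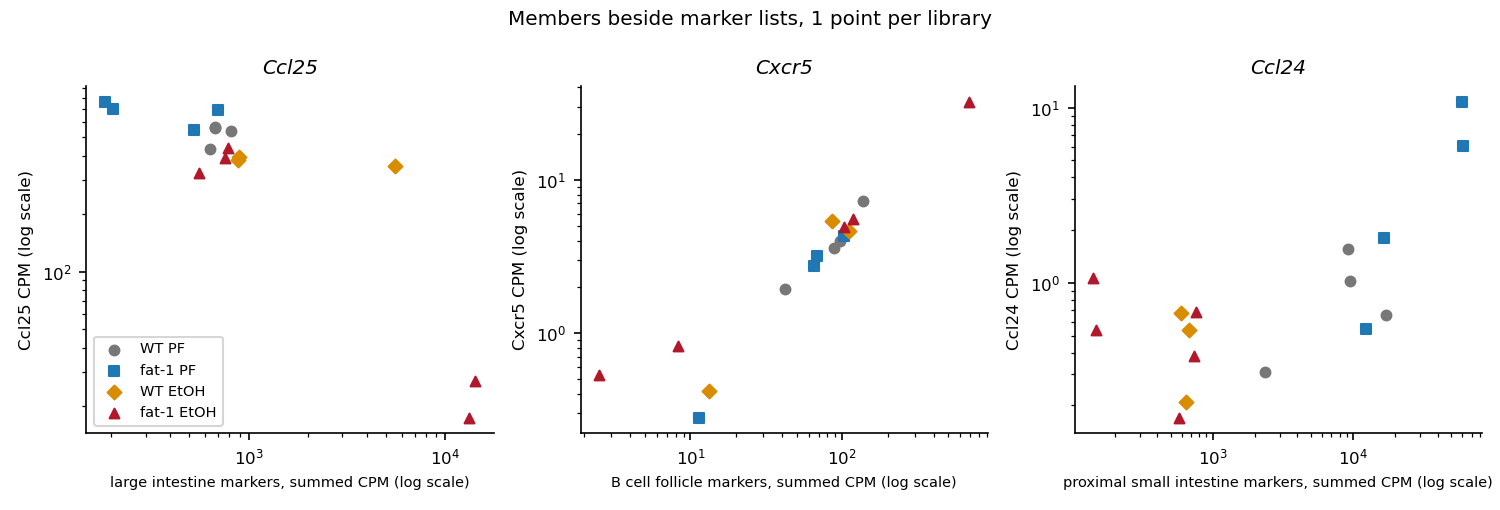
CPM of Ccl25, Cxcr5 and Ccl24 in each library (log axes) against the summed CPM of large intestine, B cell follicle and proximal small intestine markers. Ccl25 is lowest in the 2 libraries with 13140 and 14210 CPM of large intestine markers, Cxcr5 is highest (32.2 CPM) in the library with 689.5 CPM of follicle markers, and Ccl24 is highest in the 2 fat-1 PF libraries with about the same proximal marker level (59230 and 61070 CPM).

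Among the inflammatory chemokines, Ccl24, also called eotaxin-2, fell in fat-1 EtOH mice and Ccl8 rose. Ccl24 had 1.8, 10.8, 0.547 and 6.01 CPM in fat-1 PF mice and 0.38, 0.17, 1.07, 0.535 and 0.684 CPM in fat-1 EtOH mice. The groups overlapped, since fat-1 PF 3 was within the EtOH range and the mean rested on fat-1 PF 2 and 4 with 77 and 49 reads. These 2 libraries were also those with the highest proximal small intestine markers and the highest sums of 10 macrophage markers (513.5 and 498 CPM, against 159.5 to 418 CPM elsewhere), of which Cd163 rose and Mertk fell in fat-1 EtOH mice. The part of these markers in the Ccl24 and Ccl8 differences was not tested. WT PF mice had 0.312 to 1.56 CPM and WT EtOH mice 0.21 to 0.672 CPM. On the log2 scale the difference was -3.03 (SE 0.697, edgeR adjusted p = 0.00448) in fat-1 mice and -0.85 (SE 0.906, adjusted p = 0.708) in WT mice. In the 26 alternatives that tested it, the fat-1 value ran from -4.02 to -2.26 and passed the threshold in each. Its receptor Ccr3, the eosinophil receptor, was not tested, with at most 10 reads in any library.

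Ccl8, a monocyte attractant that signals through Ccr8 in the mouse, was lowest in fat-1 PF mice. Ccl8 had 0.53, 0.421, 0.957 and 0.491 CPM in fat-1 PF mice (3 to 7 reads) and 2.38, 1.02, 1.8, 1.07 and 3.17 CPM in fat-1 EtOH mice. WT PF mice had 1.86, 0.905, 1.78 and 3.12 CPM and WT EtOH mice 2.51, 1.68 and 3.19 CPM. Fat-1 PF mice therefore stood below fat-1 EtOH mice without overlap, while both WT groups overlapped. The log2 fold change of EtOH against PF was 1.64 (SE 0.459, edgeR adjusted p = 0.0126) in fat-1 mice and 0.36 (SE 0.441, adjusted p = 0.75) in WT mice. The fat-1 value of Ccl8 ran from 1.39 to 1.95 and passed the threshold in 24 of 26 alternatives, but not in limma voom (1.56, adjusted p = 0.0565) or without fat-1 EtOH 3, 4 and 5 (1.51, adjusted p = 0.0646). Ccr8 had at most 4 reads in any library and was not tested. Of the other inflammatory genes, Ccr2, the receptor for Ccl2 on monocytes, had a log2 fold change of 0.96 (SE 0.386, edgeR adjusted p = 0.0636) in fat-1 mice. The abundant Ccl6 had means of 203 and 277 CPM in fat-1 PF and fat-1 EtOH mice (log2 fold change 0.45, adjusted p = 0.129), its receptor Ccr1 7.82 and 6.04 CPM (-0.37, adjusted p = 0.362) and Ccl5 28.8 and 17.45 CPM (-0.72, adjusted p = 0.322). Ccl5 was at 4.35 and 4.28 CPM in fat-1 EtOH 3 and 4 and at 47.7 CPM in fat-1 EtOH 5. Without fat-1 EtOH 5, Ccl5 was called lower (-1.53, edgeR adjusted p = 0.0173), and over 27 alternatives it passed the threshold in 2.

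Of the genes that organise lymphoid tissue, Cxcl12 and Ackr4 rose in fat-1 EtOH mice. Cxcl12, a stromal chemokine that retains Cxcr4+ cells, had 12.5, 18.1, 14.4 and 22.2 CPM in fat-1 PF mice and 27.75, 22.1, 41.3, 28.2 and 87.8 CPM in fat-1 EtOH mice. Fat-1 EtOH 2 (22.11 CPM) fell just below the highest PF mouse (22.21 CPM), and fat-1 EtOH 5 was far above the rest. WT PF mice (17.1 to 25.2 CPM) and WT EtOH mice (19.2 to 24.4 CPM) overlapped. The difference on the log2 scale was 1.30 (SE 0.348, edgeR adjusted p = 0.0102) in fat-1 mice, 0.85 (adjusted p = 0.00787) without fat-1 EtOH 5, and 0.08 (SE 0.385, adjusted p = 0.948) in WT mice. For Cxcl12 the call in fat-1 mice was lost in limma voom (0.86, adjusted p = 0.0656) and without fat-1 EtOH 3, 4 and 5 (0.61, adjusted p = 0.064). Its receptor Cxcr4 was not called in fat-1 mice (log2 fold change 0.79, SE 0.73, adjusted p = 0.405). The 6 smooth muscle markers all rose in fat-1 EtOH mice, with sums of 906 to 1355 CPM under PF against 1859 to 4042 CPM under EtOH, and 5 of 6 fibroblast markers rose, from 230 to 279 CPM (lowest 230.4) to 319 to 505 CPM. Of 5 lymphatic endothelium markers, Prox1 and Pdpn rose, with sums of 24.2 to 29.2 CPM under PF against 28.7 to 65.8 CPM under EtOH. Blood endothelium markers went the other way, with Plvap lower, none higher and a median log2 fold change of -0.27. The part of these stromal markers in the Cxcl12 difference, and in that of Ackr4 described next, was not tested.

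Ackr4, a stromal atypical receptor that takes up Ccl19, Ccl21 and Ccl25, had 3.82, 5.05, 4.92 and 3.56 CPM in fat-1 PF mice and 6.84, 7.06, 6.56, 5.71 and 7.61 CPM in fat-1 EtOH mice. The groups did not overlap. In WT mice it had 6.88, 4.53, 4.89 and 7.07 CPM under PF and 6.63, 7.77 and 8.65 CPM under EtOH, with some overlap. The fitted log2 fold change was 0.64 (SE 0.179, edgeR adjusted p = 0.0125) in fat-1 mice and 0.39 (SE 0.197, adjusted p = 0.381) in WT mice, and the fat-1 value passed the threshold in all 27 alternatives (0.57 to 0.79). Ackr4 shares part of its transcript with Acad11. Ackr3, which removes Cxcl12, had means of 5.11 ± 1.09 and 7.97 ± 1.91 CPM (SD, n = 4 and 5) in fat-1 PF and fat-1 EtOH mice and did not pass the threshold there (log2 fold change 0.64, SE 0.26, adjusted p = 0.0644). Of the Ackr4 ligands, Ccl21a had no read and Ccl19 15 reads in all, 10 of them in fat-1 EtOH 5.

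A single library, fat-1 EtOH 5, held the highest level of 17 of the 39 tested genes, against 14.8% of all genes tested. In it, Ccr7, the receptor that takes dendritic cells and T cells to lymph nodes, reached 51.3 CPM, with 0.0892 to 2.47 CPM in the other fat-1 EtOH mice. Cxcr5, the follicle-homing receptor of B cells, reached 32.2 CPM against 0.535 to 5.53 CPM, and its ligand Cxcl13 32.5 CPM against 2.94 to 10.6 CPM. Ccl22, a dendritic cell product that attracts Ccr4+ T cells, was at 44 CPM (43.97) against 0.803 to 4.18 CPM, and Cxcr4 at 29.9 CPM against 1.34 to 8.85 CPM. The same library had the highest follicle markers, as given above, and T cell markers of 273.5 CPM against at most 72.7 CPM elsewhere. It was also highest for the summed markers of dendritic cells (53.55 CPM against at most 38.9), lymphatic endothelium (65.8 against 36.1), blood endothelium (148 against 127), adipocytes (507 against 277), M cells (245 against 190.4) and fibroblasts (505 against 456). None of these 5 genes was called in fat-1 EtOH against fat-1 PF mice, where Ccr7 had a log2 fold change of 2.92 (SE 1.27, edgeR adjusted p = 0.0836) and Cxcr5 1.73 (SE 1.04, adjusted p = 0.201). Without fat-1 EtOH 5 the log2 fold change of Ccr7 was -0.2 (adjusted p = 0.837) and that of Ccl22 -0.83, neither passing the threshold. That of Cxcr5 was then 0.17 (adjusted p = 0.889) and that of Cxcl13 0.41 (adjusted p = 0.569). Without fat-1 EtOH 3 and 4, all 4 were called, Ccr7 at 3.66 (adjusted p = 0.0196), Ccl22 at 2.21 (adjusted p = 0.0485), Cxcr5 at 2.44 (adjusted p = 0.0467) and Cxcl13 at 1.81 (adjusted p = 0.0368). Fat-1 EtOH 4, by contrast, held the lowest level of 16 of the 39 genes, against 12.6% of all genes. The part of these marker lists in the values was not tested.

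**Figure D5:**
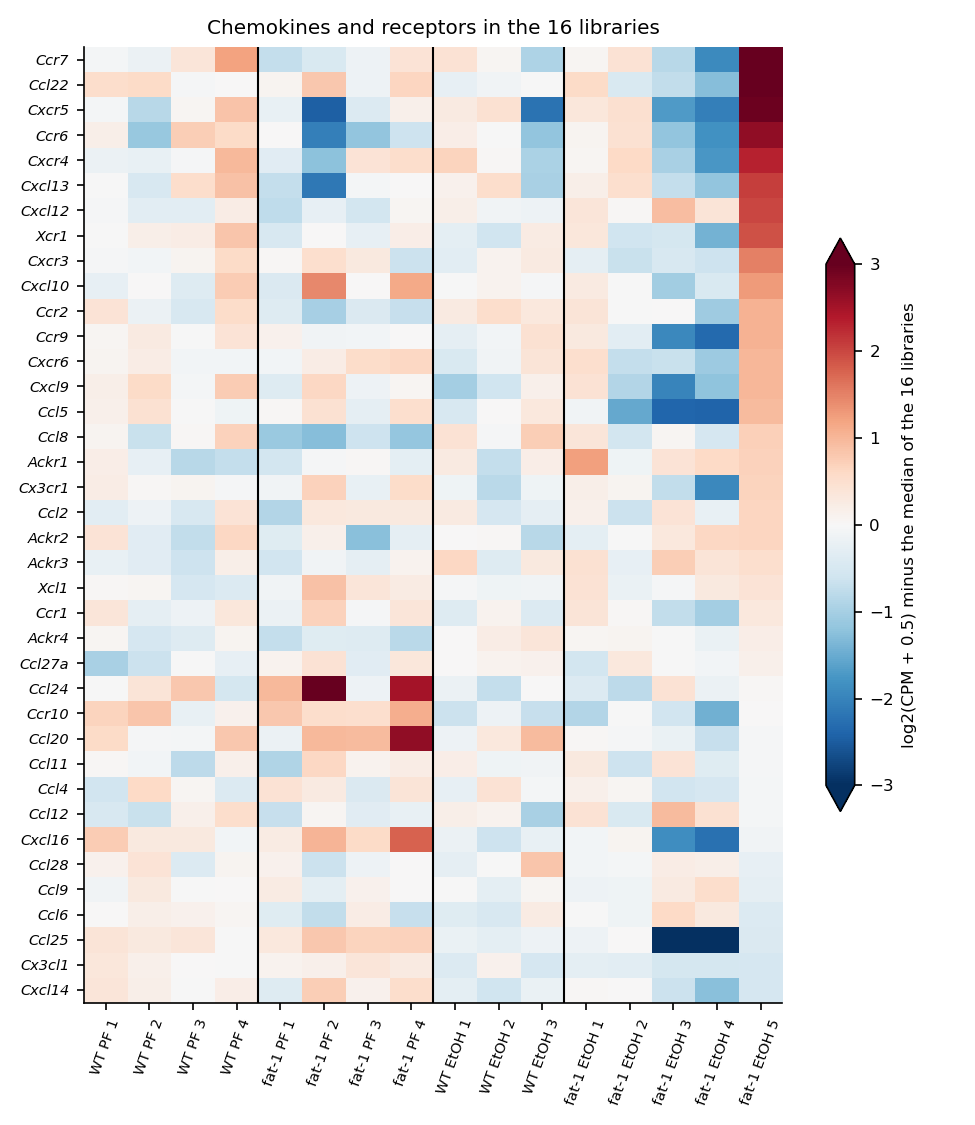
Log2(CPM + 0.5) of 38 of the 39 tested genes in the 16 libraries, each minus the gene's median over the libraries, with colours ending at 3 in either direction and genes ordered by their value in fat-1 EtOH 5. The column of fat-1 EtOH 5 is highest for 16 of the genes shown, from Ccr7 and Ccl22 downwards, and Ccl25 is far below its median in fat-1 EtOH 3 and 4.

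Averaged over both genotypes, EtOH mice differed from PF mice in 9 of the 39 genes, 4 higher and 5 lower, against 35.9% of all genes tested (18.3% higher, 17.6% lower). Ackr4 (log2 fold change 0.52, SE 0.133, edgeR adjusted p = 0.00846), Ackr3 (0.57, SE 0.195, adjusted p = 0.034), Cxcl12 (0.69, SE 0.257, adjusted p = 0.0489) and Ccl8 (1.00, SE 0.317, adjusted p = 0.0242) rose. Cx3cl1 (-0.51, SE 0.097, edgeR adjusted p = 0.0015), Ccr10 (-1.53, SE 0.368, adjusted p = 0.00594), Ccl24 (-1.94, SE 0.576, adjusted p = 0.0177), Cxcl16 (-1.13, SE 0.338, adjusted p = 0.0189) and Cxcl14 (-0.65, SE 0.198, adjusted p = 0.0205) fell. Ccl20 did not pass the threshold here (-0.91, adjusted p = 0.0781). The calls of Cxcl12 and Ackr3 were the least settled, since they passed the threshold in 13 and 16 of 26 alternatives, while those of Ackr4, Cx3cl1 and Cxcl16 passed in all 26 and Ccr10 in all 25 that tested it. In the test of the interaction, the members with the smallest unadjusted p were Ccl20 (difference of log2 fold changes, fat-1 minus WT, -2.01, SE 0.768) and Cxcl12 (1.23, SE 0.519), both with an edgeR adjusted p of 0.595.

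Between the genotypes, no chemokine or receptor was a DEG on either diet. In fat-1 PF against WT PF mice edgeR called 0 of the 39 members (0% of all genes tested), while 6 members had an unadjusted p under 0.05, as had 1758 genes or 12.7% of all tested. These were Ccl8 (log2 fold change -1.67, SE 0.479, edgeR adjusted p = 0.187) and Ackr4 (-0.43, adjusted p = 0.358), lower in fat-1 PF mice, and Ccl24 (2.42, SE 0.737, adjusted p = 0.195), Ccl20 (1.25, adjusted p = 0.345), Ccl27a (0.83, adjusted p = 0.35) and the T cell chemokine Xcl1 (0.85, adjusted p = 0.34), higher in them. No member separated the mice of the PF groups without overlap, as 6.87% of all genes did. Ccl8, Ackr4, Ccl24 and Ccl20 are also DEGs of fat-1 EtOH against fat-1 PF mice, and the comparisons share the 4 fat-1 PF mice. DESeq2 and limma voom called 0 members between the PF groups as well. In fat-1 EtOH against WT EtOH mice, 0 members were called in edgeR, where 1 gene of all tested (0.00724%) passed. Only Cxcl12 had an unadjusted p under 0.05 (log2 fold change 0.97, SE 0.376, adjusted p = 0.757), as had 4.86% of all genes.

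In WT mice the mice of the diets did not overlap for 5 members, against 24.3% of all genes tested. The mucosal chemokines Cxcl16, Cxcl14 and Ccl25 and the receptor Cx3cr1 (4.78 against 6.51 CPM on average) were lower in every WT EtOH mouse, and Ccl27a was higher (1.44 against 0.872 CPM). In fat-1 mice the diets did not overlap for 6 members, namely Ccl8 and Ackr4, which were higher, and Cxcl16, Ccl25, Cx3cl1 and Ccr10, which were lower, against 24% of all genes. None of the 5 in WT mice passed the threshold in the fit of all groups. With quality weights in limma voom, Ackr3 (log2 fold change 0.71, adjusted p = 0.0421), Ccr10 (-1.36, adjusted p = 0.0306) and Cx3cl1 (-0.49, adjusted p = 0.00943) were called in WT mice, where that method called 2853 genes in all (20.7% of those tested). A fit of the WT mice alone called Cxcl14 (-0.54, adjusted p = 0.0417) and Ccl25, where 1103 genes (8.3% of those tested) were called.

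The interferon-induced chemokines and their receptor, and the neutrophil attractants, gave no DEG. Cxcl9 and Cxcl10, which attract Cxcr3+ T cells, had log2 fold changes of -0.22 (SE 0.53, edgeR adjusted p = 0.763) and -0.6 (SE 0.54, adjusted p = 0.392) in fat-1 mice, and Cxcr3 0.11 (SE 0.577, adjusted p = 0.89). None of the 7 neutrophil-attracting genes passed the filter. Cxcl1 had 0 to 7 reads, Cxcl5 0 to 7 and Cxcl2 0 to 6 per library. Cxcl2 had 1 to 6 reads in fat-1 PF mice and 0 or 1 in fat-1 EtOH mice, and it was called lower in fat-1 EtOH mice when the filter was loosened to a minimum count of 1 (adjusted p = 0.0117) and in DESeq2 (adjusted p = 0.0134). Their receptor Cxcr2 had 22 reads in fat-1 EtOH 5 and at most 2 elsewhere. The 6 neutrophil markers summed to 6.44 to 21.6 CPM in the PF libraries, 3.22 to 4.3 CPM in WT EtOH and 2.32 to 8.38 CPM in fat-1 EtOH mice. Of the 2 that could be tested, Mmp9 fell in fat-1 EtOH mice, and the part of these markers in the Cxcl2 difference was not tested.

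Genes around the chemokine system were taken from lists of signalling, handling, inducing cytokine and adhesion genes, and their calls in fat-1 EtOH against fat-1 PF mice are to be read against the 37.4% of all genes called there (18.7% higher, 18.8% lower). Of 27 tested genes of chemokine receptor signalling, 3 rose and 1 fell (median log2 fold change 0.36, against 0.05 over all genes), a smaller share than over all genes. The receptor kinase gene Grk3 (0.7, SE 0.162, edgeR adjusted p = 0.00454), Gng2 (0.61, SE 0.173, adjusted p = 0.0141) and Rgs2, which shortens G protein signalling (0.4, SE 0.119, adjusted p = 0.0161), rose, and the G protein subunit gene Gnb1 fell (-0.72, SE 0.18, adjusted p = 0.00711). Of 12 tested cytokine genes and receptors that induce chemokines, 2 rose and 2 fell, a share near that over all genes. The lymphotoxin receptor gene Ltbr (-0.98, SE 0.131, edgeR adjusted p = 0.000271) and the TNF receptor gene Tnfrsf1a (-0.96, SE 0.247, adjusted p = 0.00827) fell, with means of 213 against 108 CPM and 217 against 112 CPM in PF and EtOH mice, and Il1r1 (1.34, SE 0.332, adjusted p = 0.00659) and Ifngr1 (0.44, SE 0.151, adjusted p = 0.0321) rose. Of 10 tested genes of chemokine handling, Sdc1, a heparan sulfate carrier (0.94, SE 0.223, edgeR adjusted p = 0.00521), and Rarres2, which encodes chemerin (0.53, SE 0.165, adjusted p = 0.0217), rose, and none fell. In both directions together this is a smaller share than the 37.4% of all genes, while the share that rose was near the 18.7% of all genes. None of 14 lymphocyte adhesion genes was called in edgeR. In the comparisons of WT EtOH with WT PF mice and of the genotypes, none of these genes was called.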

How the data were processed

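RNA-seq counts of 16 terminal ileum libraries (1 per mouse, poly(A), strand-marking) were used as deposited. The authors aligned reads with TopHat2 to mm10 guided by Ensembl transcripts and made raw counts per gene with HTSeq. The counting settings, strand included, are not given in the sources used here, so overlapping genes are uncertain. Genes passing filterByExpr (13811) were tested with edgeR 4.0.16 in R 4.3.3 (TMM, robust quasi-likelihood, 1 mean per group, all 16 libraries), with Benjamini-Hochberg adjustment at 0.05. P-values set each difference against the spread between mice, estimated over all 4 groups together. The fat-1 EtOH mice therefore enter the test of WT EtOH against WT PF mice. RPKM used exon lengths from GENCODE M21. Figures were drawn in Python 3.11.15 with matplotlib 3.10.9. The fit was tested on simulated data with the same spread in every group and no outlying library. That simulation does not cover a group as uneven as the fat-1 EtOH mice. Alternatives used DESeq2 1.42.0, limma 3.58.1 voom, other scaling and filters, the compared groups only, a replicate block and leaving out each mouse. Omission of libraries with high large intestine or follicle markers was chosen after seeing the data. Genes and lists were chosen with earlier results of these data known. Named are all members that were DEGs, the 6 chemokines and 6 receptors with the highest RPKM, partners of DEGs, undetected members and up to 6 DEGs per pathway list. Other members named for 1 library, an unadjusted p or non-overlap were chosen after their values were seen. Replicate numbers did not pair the mice: deviations from group means correlated at -0.0225 on average over 21 same-numbered pairs and at 0.00703 over 74 others. Cxcl11 was not analysed here. 1 member is counted in the totals but not reported here.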

Additional observations from a re-analysis of the deposited data

Results flagged for a closer look

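In 10 of 117 groups of 4 or 5 mice tested, 1 mouse lay far from the others of its group for a chemokine or receptor. Of these, 8 were high values in fat-1 EtOH 5. The rule used flags about 1 in 20 groups of independent and normally spread values. These groups share libraries and hold untransformed CPM, so the count cannot be read against that rate. In fat-1 EtOH 5, Ccr7 was at 51.32 CPM (0.08921 to 2.466 CPM in the other 4 mice), Ccl22 at 43.97 CPM (0.8029 to 4.181), Cxcl13 at 32.5 CPM (2.944 to 10.63) and Cxcr5 at 32.25 CPM (0.5353 to 5.528). The same mouse had 29.94 CPM of Cxcr4 (1.338 to 8.845), 12.57 CPM of Ccr6 (0.08921 to 2.381), 7.185 CPM of Xcr1, a receptor of cross-presenting dendritic cells (0.2676 to 2.091), and 4.448 CPM of Cxcr3 (0.5953 to 0.9502). Cxcr4 was also high in WT PF 4, at 11.54 CPM against 4.754 to 5.554 CPM. Ccl2, a monocyte attractant, was low in fat-1 PF 1, at 0.212 CPM against 1.093 to 1.123 CPM.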

How the results depend on the processing

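Genes called in WT EtOH against WT PF mice (11) numbered 258 in DESeq2, 2853 in limma voom, 2 with the looser and 0 with the stricter filter, 1103 with only the groups compared, 26 without the 3 libraries high in large intestine markers, 273 without fat-1 EtOH 3 and 4, 310 without fat-1 EtOH 3, 4 and 5, and 0 to 66 when any 1 mouse was left out. Chemokines and receptors called there (0) numbered 3 in limma voom (20.7% of all genes) and 2 with only the groups compared (8.3%). In fat-1 EtOH against fat-1 PF mice, the 5170 genes became 3086 with only the groups compared and 2458 without fat-1 EtOH 3, 4 and 5, and the 9 members (37.4% of all genes being called) became 12 in DESeq2 (31.6% of all genes), 5 in limma voom (26.8%), 16 without fat-1 EtOH 3 and 4 (30.8%), 4 without fat-1 EtOH 3, 4 and 5 (17.9%), and 6 to 11 when any 1 mouse was left out (28.5% to 39.4%). For fat-1 PF against WT PF mice (0 genes), DESeq2 called 177, limma voom 30 and the fits without 1 mouse 0 to 114. Between the EtOH groups (1 gene), DESeq2 called 5, the fits without 1 mouse 0 to 1, and the fits with only the groups compared or without fat-1 EtOH 3, 4 and 5 called 0. With the replicate block, which does not rest on any pairing in the labels, 18 genes were called in WT EtOH against WT PF mice, 0 in fat-1 EtOH against WT EtOH mice and 10 members in fat-1 EtOH against fat-1 PF mice (34.4% of all genes). Signs turned for genes that were not called. In fat-1 mice Ccl22 was at -0.04 in limma voom, -0.93 with the block, -0.27 without fat-1 EtOH 3, 4 and 5, and -0.83 to 1.81 without 1 mouse, and Ccr7 was at -0.19 with the block and -0.2 to 3.3 without 1 mouse. In WT mice Ccl20 was at -0.08 in limma voom and -0.34 to 0.36 without 1 mouse, and Cxcl12 at -0.04 to 0.2. The cause was not tested. Genes under about 3 reads per library could not be compared at this depth.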
